A study of Mus musculus with 41 samples.

Results

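The secretory pathway and unfolded protein response were followed through 45 genes, taken by symbol from the 50763 genes of the count table. By role, 12 encode chaperones and cochaperones of the endoplasmic reticulum (ER), 8 disulfide or prolyl isomerases, 8 proteins of ER-associated degradation, 12 parts of the translocon and signal peptidase, and 5 stress sensors and stress transcription factors. Polyadenylated RNA was sequenced in bulk from spleen cells of mice aged 3 to 5 months, to ask how loss of the kinases Mek1 and Mek2 changes the transcriptome of B cell subsets. Sorting was by surface markers: plasma cells as B220+CD138+, immature B cells (Immature) as B220+CD93+CD138-, germinal center (GC) cells as GL7+FAS+, follicular cells as CD21+CD23+ and marginal zone cells as CD21+CD23-. The gate for age-associated B cells (ABC) is not stated in the labels. Mice were wild type (wt) or Mek1 flox/flox Mek2+/- with the Vav1-iCre transgene, whose promoter drives Cre throughout the blood lineages and not only in B cells. The labels call this second genotype 1Mek2. Of 41 libraries, 40 were used, from 16 animals: 3 wt and 3 labelled 1Mek2 in each of Immature, ABC, MarginalZone and Plasma, and 4 and 4 in GC and Follicular. An Immature library labelled 1Mek2 whose library name reads Mek1ff was left out. GC wt replicate 4, from the same animal by its number, also has a library name that reads Mek1ff, and was kept as wt, as its label says; the genotype of this animal is therefore in doubt, and values without that library are given where it moved a count. Several animals gave libraries of more than 1 subset.

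Proteins that are secreted or placed in membranes enter the ER through the Sec61 channel, lose their signal peptide to the signal peptidase, and fold with the help of chaperones such as BiP (Hspa5) and of disulfide isomerases. Proteins that fail to fold are drawn back to the cytosol and degraded. When unfolded protein builds up, the sensors IRE1 (Ern1), ATF6 and PERK (Eif2ak3) raise the genes of this machinery through the transcription factors XBP1, ATF6 and ATF4, and plasma cells, which secrete antibody in bulk, are known for a large ER and high XBP1.

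The sites of this response found in the members' promoters are shown first, for members whose values follow. RefSeq promoter windows (build GRCm38.p6) were matched for 37 of the 45 members, and the 250 bases before each start were searched on both strands. The ER stress response element, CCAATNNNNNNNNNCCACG, lay in 9 of the 37 (24.3%), against 35 of 27025 genes with a window (0.13%). The shorter second form, ATTGGNCCACG, lay in the window of Herpud1 and in those of 10 genes in all (0.037%). Capitals mark the element, in whichever orientation it lies, with 10 bases on each side.
Hspa5 (chr2:34772015-34772053, plus strand): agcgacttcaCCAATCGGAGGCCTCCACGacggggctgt
Dnajc3 (chr14:118937817-118937855, plus strand): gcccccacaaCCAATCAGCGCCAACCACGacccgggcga
Creld2 (chr15:88819510-88819548, plus strand): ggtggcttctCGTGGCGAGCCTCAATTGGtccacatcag
Derl3 (chr10:75893232-75893270, plus strand): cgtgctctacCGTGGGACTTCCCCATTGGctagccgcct
Pdia6 (chr12:17266481-17266519, plus strand): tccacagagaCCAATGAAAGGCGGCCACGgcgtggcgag
Syvn1 (chr19:6046522-6046560, plus strand): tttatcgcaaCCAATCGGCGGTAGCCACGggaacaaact
Canx (chr11:50325790-50325828, minus strand): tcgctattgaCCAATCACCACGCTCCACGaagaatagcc
Herpud1 (chr8:94386367-94386397, plus strand): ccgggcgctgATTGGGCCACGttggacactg
Hsp90b1 (chr10:86705523-86705666, minus strand): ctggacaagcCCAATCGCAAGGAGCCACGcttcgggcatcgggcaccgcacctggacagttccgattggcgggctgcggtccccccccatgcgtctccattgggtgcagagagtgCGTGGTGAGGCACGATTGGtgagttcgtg
Hsp90b1 held 2 copies in opposite orientations, and Calr held the tenth promoter with an element. The element TGACGTGG, bound by XBP1 and ATF6, lay in Txndc5 and Txndc11 (5.41% of the members against 0.603% of genes). The ATF4 element TGATGNAA lay in Herpud1 and Txndc5, 5.41% against 3.91%. These are matches of letters and not evidence of binding in these cells. The members were chosen as genes of this pathway and response, so an excess of its elements among them is no independent result.

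Total gene-span counts ran from 7883989 to 34925667 per library. In span counts neither targeted gene was called lower in libraries labelled 1Mek2 in any subset. Map2k2, which encodes Mek2, had a positive log2 difference in every subset, from 0.58 ± 0.40 in Immature to 1.58 ± 1.12 in ABC, and was called in none. Map2k1, which encodes Mek1, lay below wt without overlap in ABC alone, at 232 to 272 CPM (span counts scaled to library size) against 438 to 1379, with an edgeR adjusted p of 0.199. Counts over whole spans cannot show loss of part of a gene, and the stated genotype keeps a Mek2 allele. These values therefore do not decide the genotype, and the text speaks of libraries labelled 1Mek2. By an index of genes other than the members, the Plasma, Follicular, MarginalZone and ABC libraries fell into 2 types that are not in the labels. These were 7 of type 1 (index 2.80 to 3.96) and 19 of type 2 (-4.67 to 0.06). The index genes were those that best separated 2 sets of Follicular libraries, split at the largest gap in their own variation. Plasma libraries of type 2, at -1.26 to 0.06, lay between type 1 and the rest of type 2, at -1.88 or below. Immature and GC libraries (1.71 to 3.91) were given no type. Type 1 held 2 of 3 Plasma wt libraries (replicates 1 and 3) but 1 of 4 Follicular wt libraries (replicate 4), and 1 of 3 Plasma and 1 of 4 Follicular libraries labelled 1Mek2 (replicate 2 in each). Of the defining markers, S1pr2, a receptor of germinal center B cells, was at 103 to 234 CPM in GC wt and 1.00 to 1.32 in Follicular wt, and Cr2, which encodes CD21, at 1680 to 2052 in MarginalZone wt against 513 to 1030. In Plasma wt, all 6 plasma cell markers were higher than in Follicular wt, and so were all 10 T cell markers (sums of 3030 to 6648 against 75.8 to 199.6 CPM) and all 9 neutrophil markers tested (1528 to 4544 against 0.2 to 2.0 CPM). ABC wt libraries carried plasmacytoid dendritic cell markers at 5452 to 8409 CPM, against 124 to 224 in Follicular wt, and only 39.9% to 50.02% as many exon reads as gene-span counts, against 61.7% to 87.3%.

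Summed over the 45 genes, TPM, the authors' measure of transcript abundance per length, were highest in plasma cells. Plasma wt libraries summed to 15584 ± 4702 TPM (SD, n = 3), Immature wt to 9390 ± 1438 (n = 3), GC wt to 10462 ± 700.0 (n = 4), MarginalZone wt to 8138 ± 3726 (n = 3), Follicular wt to 6712 ± 1993 (n = 4) and ABC wt to 5496 ± 282 (n = 3). Plasma wt overlapped 3 other subsets in this sum, since its lowest library, at 10196, lay below the highest of MarginalZone wt (12134, the only type 1 library of that group), of GC wt (11252) and of Immature wt (11000). The neighbours GC and Immature, and MarginalZone and Follicular, overlapped too. In libraries labelled 1Mek2, Plasma reached 25026 ± 3633 TPM (n = 3), and its lowest library, 20941, lay above the highest Plasma wt library, 18861. Chaperones gave 8299.8 ± 2709.6 TPM of the sum in Plasma wt, while the 5 sensors and stress factors together gave 160 ± 31.6 TPM there and 185 ± 31.3 in Follicular wt. Within Plasma wt the highest members per length were Mzb1, a cochaperone of antibody assembly in B lineage cells (1951 ± 718 TPM), Hsp90b1, the ER form of HSP90 (1568 ± 558), and Manf, a small ER protein released under stress (1079 ± 389). Ern1, by contrast, stood at 6.0 ± 2.9 TPM. Of the 45 genes, 24 had their highest wt mean in Plasma, 8 in GC, 7 in ABC, 3 in Follicular, 2 in Immature and 1 in MarginalZone.

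**Figure D1:**
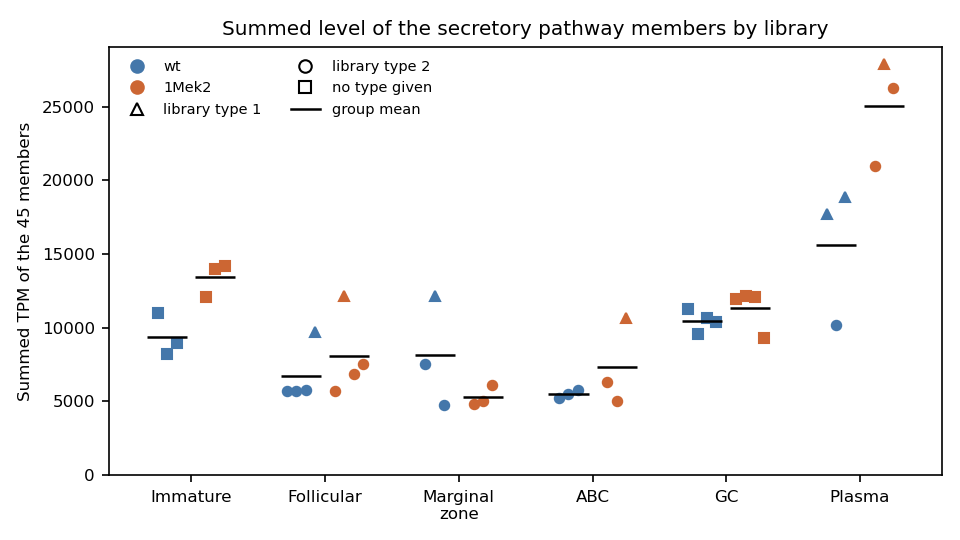
Summed TPM of the 45 genes in each library (y axis), by subset and genotype (x axis), with blue for wt and orange for libraries labelled 1Mek2, and triangles for library type 1, circles for type 2 and squares for libraries given no type. The 3 Plasma libraries labelled 1Mek2, at 20941 to 27894 TPM, lie above all others, and Follicular wt replicate 4, at 9701, lies above the other Follicular wt libraries, at 5691 to 5745.

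In wt mice, plasma cells carried more RNA than follicular cells for 23 of the 44 members that could be tested and less for 1. Over all 15563 genes tested, 12.2% were called higher and 5.53% lower (edgeR quasi-likelihood test, Benjamini-Hochberg adjusted p under 0.05, which is what "called" means for every comparison of 2 groups below). The members' median log2 fold change was 1.92, against -0.01 over all genes tested. In 22 members every Plasma wt library lay above every Follicular wt library, as it did for 14.9% of all genes. The calls were spread over the roles, with 8 of 12 chaperones (median 2.49), 3 of 7 isomerases tested (2.05), 6 of 8 degradation genes (2.24), 5 of 12 translocon and signal peptidase genes (1.43) and 1 of 5 sensors and stress factors (0.62). In bulk RNA, a larger share of cells of a type and more RNA per cell cannot be told apart.

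Among degradation genes, Derl3 (chr10:75729232-75731775, GRCm39), a derlin that helps move misfolded proteins out of the ER, had the largest difference. Its level was 195, 119 and 244 CPM in the 3 Plasma wt libraries and 3.97, 5.30, 3.76 and 4.88 in the 4 Follicular wt libraries, a log2 fold change of 5.57 ± 0.39 (SE; edgeR adjusted p = 0.000163). Edem2, which trims mannose from misfolded glycoproteins, stood at 600, 370 and 436 CPM in Plasma wt against 84.1, 74.3, 65.4 and 101 (log2 fold change 2.71 ± 0.34, edgeR adjusted p = 0.001). Neither gene's groups came near to touching. Herpud1 (2.58), Sel1l (2.51), Edem1 (1.97) and Derl1 (1.56 on the log2 scale) were called higher too. Derl2 was not called (0.94, adjusted p = 0.183). Syvn1 (chr19:6096586-6103748), the ubiquitin ligase HRD1 at the core of the same machinery, was the only member called lower. It stood at 89.5, 58.9 and 82.0 CPM in Plasma wt against 337, 387, 278 and 94.6 in Follicular wt (-1.59 ± 0.43, edgeR adjusted p = 0.0321). The lowest Follicular wt value was replicate 4, the type 1 library, and the difference was -0.10 with an adjusted p of 0.961 within type 1 alone. It was not called with a term for library type (-1.24, adjusted p = 0.117), nor in 6 of the 7 fits that left out 1 library.

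Creld2 (chr15:88703849-88710884), a stress-induced ER protein, led the chaperones. It was at 925, 490 and 942 CPM in Plasma wt and 49.8, 39.4, 35.6 and 58.4 in Follicular wt (log2 fold change 4.28 ± 0.40, edgeR adjusted p = 0.000329). Dnajc3, the cochaperone p58IPK, was at 780, 421 and 623 against 55.0, 58.2, 61.1 and 69.1 CPM (3.51 ± 0.34, edgeR adjusted p = 0.000331). In both genes even the lowest Plasma library, replicate 2, was more than 6 times as high as any Follicular library. Hsp90b1 (3.02), Sdf2l1 (2.87), Manf (2.85), Mzb1 (2.04), Hspa5 (1.92) and Calr (1.65) were also called higher. Most of the span of Hspa5 (81.0%) is shared with Rabepk, and its span count was lower than its exon reads, on average 5670 against 14759 reads per library, so its fold change rests on part of its reads. Not called among the chaperones were Dnajb9 (3.02, adjusted p = 0.0795), Dnajb11 (2.13, 0.0765), Canx (0.90, 0.329) and Hyou1 (0.81, 0.311). For Dnajb9 the Plasma wt libraries were far apart, at 350, 16.2 and 268 CPM, with the low value in the only type 2 library.

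Of the isomerases, Fkbp11, a prolyl isomerase of secretory cells, was at 85.6, 26.8 and 94.1 CPM in Plasma wt and 5.93, 14.6, 13.4 and 6.87 in Follicular wt (2.98 ± 0.52, edgeR adjusted p = 0.00423). Pdia6, a disulfide isomerase, was at 1096, 551 and 889 CPM against 116, 72.6, 65.1 and 370 (2.53 ± 0.69, edgeR adjusted p = 0.0325). The 370 is again Follicular wt replicate 4. P4hb was called higher (1.71), whereas Pdia3 (2.24, adjusted p = 0.0975), Pdia4 (2.05, 0.0857), Txndc5 (1.91, 0.0919) and Txndc11 (-0.21, 0.717) were not called. The span of Txndc11 has 59767 bases, of which 3122 are exonic. In exon reads it was at 70.4, 59.3 and 79.4 CPM in Plasma wt, above the 51.1, 41.7, 46.0 and 28.5 of Follicular wt. Fkbp2 could not be tested, with 0.1 span reads per library on average, 99.1% of its span being shared with Gm51400 on the same strand.

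Of the translocon and signal peptidase genes, Spcs2, a signal peptidase subunit, was at 1321, 543 and 1195 CPM in Plasma wt and 175, 173, 140 and 539 in Follicular wt (2.10 ± 0.60, edgeR adjusted p = 0.04). The lowest Plasma and the highest Follicular library all but met. Spcs1, its partner subunit, was at 333, 152 and 298 against 65.2, 69.6, 63.6 and 117 CPM (1.89 ± 0.42, edgeR adjusted p = 0.0129). The translocon-associated Ssr4 (1.58) and Ssr2 (1.14) and the channel subunit Sec61b (1.28) were called higher. Not called were Spcs3 (2.57, adjusted p = 0.162), Ssr3 (2.35, 0.097), Ssr1 (1.87, 0.162), Sec61a1, the pore of the channel (0.79, 0.19), Sec63 (0.10, 0.873), Sec62 (-0.02, 0.972) and Sec61g (-0.10, 0.896).

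Of the sensors, Ern1 alone was called. It was at 153, 45.4 and 86.6 CPM in Plasma wt and 12.1, 21.3, 20.3 and 7.82 in Follicular wt (2.86 ± 0.48, edgeR adjusted p = 0.00367). Atf6 was at 168, 73.6 and 138 against 207, 216, 238 and 93.1 CPM (-0.34, adjusted p = 0.598), and Eif2ak3 at 102, 55.8 and 95.8 against 183, 133, 165 and 90.3 (-0.53, 0.321). Atf4 was at 92.4, 109 and 122 against 95.2, 70.3, 58.6 and 94.8 CPM (0.62, adjusted p = 0.235). Ddit3, which encodes the stress factor CHOP, was at 66.2, 76.7 and 81.7 against 52.8, 54.6, 32.3 and 57.8 CPM (0.78, 0.146). Its groups did not overlap, but it was not called. These are span counts, introns included. In exon reads Atf6 was at 77.9, 18.8 and 70.2 CPM in Plasma wt against 25.1, 37.6, 47.7 and 39.0 in Follicular wt. Eif2ak3 was at 45.1, 9.49 and 42.9 against 31.3, 25.6, 42.4 and 40.3 exon CPM. Both overlapped, while Ern1, at 9.92 to 44.6 against 2.51 to 8.53, did not. Exon reads were 84.9% to 102% as many as span counts in Plasma wt and 61.7% to 87.3% in Follicular wt.

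How many members were called depended on single libraries. Without Plasma wt replicate 3 the count of all calls was 12, and without Plasma wt replicate 1, or any of Follicular wt replicates 1, 2 and 3, it was 15. Without Follicular wt replicate 4 it was 34 (33 higher), where 2976 of 15082 genes were called higher and 1640 lower. Within library type 1 alone, 2 Plasma against 1 Follicular library, with the lone library assumed to vary like the others, 18 members were called higher (3.17% of all genes) and 0 lower, and with a term for type 29 (13.2%) and 0. Within type 2 alone, 1 Plasma against 3 Follicular libraries, 27 were higher, where 20.9% of all genes were, and 7 lower, a share near the 14.8% of all genes. Derl3 stayed between 5.23 and 5.76 on the log2 scale in all 7 fits that left out 1 library.

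**Figure D2:**
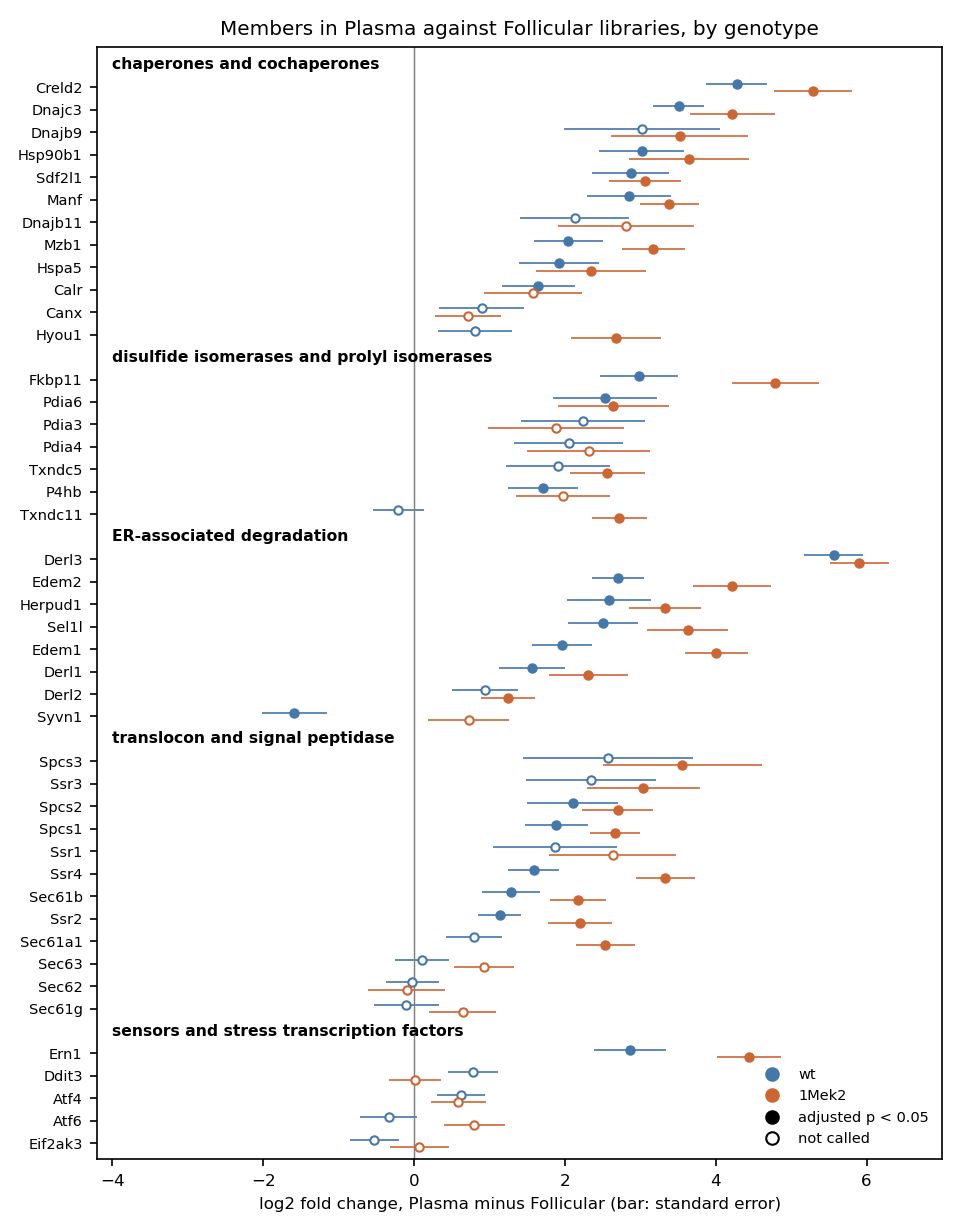
Log2 fold change of Plasma minus Follicular for each tested member (one row per gene, grouped by role), in wt (blue) and in libraries labelled 1Mek2 (orange), with bars of 1 SE and filled points where the adjusted p was under 0.05. Derl3 lies farthest to the right in both genotypes, at 5.57 and 5.91, and Txndc11 differs most in place, at -0.21 in wt and 2.72 in 1Mek2. These are span counts, introns included. In exon reads Txndc11 was at 59.3 to 79.4 CPM in Plasma wt and 28.5 to 51.1 in Follicular wt.

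The same contrast in mice of the other genotype shares no library with the one above. Here 29 of 44 members were called higher in Plasma and 0 lower, against 13.9% and 5.95% of the 14822 genes tested. The median was 2.65, against -0.09 over all genes, and 28 members had every Plasma library above every Follicular library, as did 17.7% of all genes. Called higher were 9 of 12 chaperones, 4 of 7 isomerases, 7 of 8 degradation genes, 8 of 12 translocon and signal peptidase genes, and again Ern1 alone of the sensors. Derl3 was at 475, 692 and 786 CPM in Plasma against 9.82, 12.1, 12 and 14.3 in Follicular (5.91 ± 0.40, edgeR adjusted p = 0.000131). Creld2 was at 1727, 4161 and 2836 against 72.8, 128, 58.7 and 68.2 CPM (5.29 ± 0.52, edgeR adjusted p = 0.000272). Ern1 (4.44 ± 0.42), Edem1 (4.01 ± 0.41), Manf (3.39 ± 0.39) and Ssr4 (3.33 ± 0.40) followed by p. Of the 23 members called higher in wt, 21 (91.3%) were called here, which is 72.4% of the 29. Calr (1.58, adjusted p = 0.124) and P4hb (1.98, 0.0501) were called in wt only, and Ssr3, Sec61a1, Spcs3, Hyou1, Derl2, Dnajb9, Txndc5 and Txndc11 here only; which side of the threshold a gene fell on does not show that the genotypes differ.

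Against germinal center cells, which divide but do not secrete in bulk, 26 of 44 members were called higher in Plasma wt and 0 lower, where 8.36% and 10.8% of 17769 genes were. The median was 1.54 against -0.05 over all genes. Fkbp11 gave the largest difference among those named, at 0.05, 0.18, 2.27 and 1.02 CPM in the 4 GC wt libraries against 26.8 to 94.1 in Plasma wt (6.26 ± 0.99, edgeR adjusted p = 0.000788). Dnajc3 (3.33 ± 0.39, adjusted p = 3.42e-05), Creld2 (3.23 ± 0.41, 6.28e-05), Edem2 (2.90 ± 0.39, 9.75e-05), Derl3 (3.81 ± 0.53, 0.000127) and Hsp90b1 (2.90 ± 0.44, 0.000321) had the smallest p in this edgeR test. By role these were 11 of 12 chaperones, 4 isomerases, 4 degradation genes, 5 translocon and signal peptidase genes, and 2 of the sensors and stress factors, Ddit3 (1.94, adjusted p = 0.0046) and Ern1 (3.05, 0.00108). The count fell to between 15 and 16 when Plasma wt replicate 1 or GC wt replicate 1 or 2 was left out, and without GC wt replicate 4, of doubtful genotype, 19 were higher and 1 lower.

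Fewer members were called in the other wt subsets against Follicular wt than in Plasma wt. In GC wt 4 members were called higher and 3 lower (14.6% and 10.5% of 15638 genes). Edem1 was at 114, 188, 331 and 116 CPM in GC wt, above the Follicular wt range of 68.4 to 111 (1.37 ± 0.32, edgeR adjusted p = 0.00641). Fkbp11 (-3.15 ± 1.02, adjusted p = 0.0373) and Ddit3 (-1.07 ± 0.36, 0.0448) lay below every Follicular library. Herpud1, Derl3 and Creld2 were called higher and Syvn1 lower, with libraries that overlapped. The calls in GC numbered 4 without Follicular wt replicate 1 or 2 or GC wt replicate 1 or 4. With Follicular wt replicate 4 left out there were 21, 14 higher and 7 lower, where 4436 of 18200 genes were called higher and 2589 lower. That library as the only reference was an alternative chosen after the data were seen. It gave the members a median log2 fold change of -0.55, against 1.46 over all genes. In Immature wt 1 member was called higher and 3 lower, against 32.3% and 7.15% of 20144 genes. Sec61g, a channel subunit, was at 24.0, 20.2 and 35.4 CPM there against 73.4, 148, 121 and 45.7 (-1.09 ± 0.38, edgeR adjusted p = 0.0344), and Sec62 (-0.83 ± 0.30, 0.0408) also lay below without overlap. Ern1 (1.06) and Syvn1 (-1.29) were called with overlap. Here the count was 24 without Follicular wt replicate 4, 1 without Follicular wt replicate 1 or 3, and 0 and 2 without Immature wt replicates 2 and 3. The 24 were 13 higher and 11 lower, where 6804 of 19777 genes were called higher and 4876 lower. With exon reads 0 of the 4 calls were kept. Ern1, whose span is mostly intron, went the other way in exon reads. It was at 1.10, 1.67 and 2.78 exon CPM in Immature wt against 2.51, 4.51, 8.53 and 3.10 in Follicular wt.

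In MarginalZone wt no member was called by edgeR, where 0.340% of 14699 genes were. Of the 44 members, 5 had an unadjusted p under 0.05, as did 8.65% of all genes. DESeq2 called 1 member higher, where 326 of 17072 genes were called higher. The 3 smallest p belonged to Edem1 (1.22 ± 0.31, adjusted p = 0.183), Pdia4 (1.75 ± 0.53, 0.319) and Atf6 (1.21 ± 0.41, 0.392).

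In ABC wt all 3 sensors were called higher than in Follicular wt in gene-span counts, while the other calls went in both directions; in exon reads 1 of the 3, Eif2ak3, overlapped between the groups. In all, 5 of the 44 members were called higher, near the 11.9% of 14357 genes, and 6 lower, against 8.30%. Ern1 was at 1148, 829 and 219 CPM, against 7.82 to 21.3 in Follicular wt (5.88 ± 0.72, edgeR adjusted p = 0.000792). Atf6 was at 914, 1592 and 661 against 93.1 to 238 CPM (2.74 ± 0.49, edgeR adjusted p = 0.00595), and Eif2ak3 at 661, 333 and 277 against 90.3 to 183 (1.84 ± 0.54, 0.0378). Sec62 (1.88 ± 0.44) and Dnajc3 (2.34 ± 0.61) were the others called higher. Manf was at 1.40, 1.41 and 9.08 CPM against 50.7 to 159 (-4.50 ± 1.13, edgeR adjusted p = 0.0229), and Spcs1 at 6.03, 0.98 and 3.52 against 63.6 to 117 (-4.32 ± 1.06, 0.0217). Pdia6 (-3.32), Atf4 (-3.41), Mzb1 (-3.79) and Fkbp11 (-4.73) were called lower as well. Spans that are long against their exons, such as that of Ern1 (93228 bases, of which 7027 are exonic), count many intronic reads. In exon reads Ern1 was at 180, 44.1 and 30.6 CPM in ABC wt and 2.51 to 8.53 in Follicular wt, and Atf6 at 1000, 200.4 and 132.6 against 25.1 to 47.7. Eif2ak3 was at 17.7, 100.1 and 69.1 against 25.6 to 42.4 exon CPM, and the lowest of these 7 libraries was one of ABC wt. Reads on long neuronal genes summed to 894 to 3251 CPM in ABC wt and 26.8 to 83.1 in Follicular wt. The part of these reads, of the low exon share and of the dendritic cell markers in the ABC differences was not tested. Blocking on the animal gave 17 calls here, and adding library type to the fit gave 4. Omitting Follicular wt replicate 1 or 2 gave 2, replicate 3 gave 3 and replicate 4 gave 4, and omitting ABC wt replicate 2 or 3 gave 7 and 18. The 18 were 6 higher and 12 lower, where 2530 of 15281 genes were called higher and 3897 lower.

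**Figure D3:**
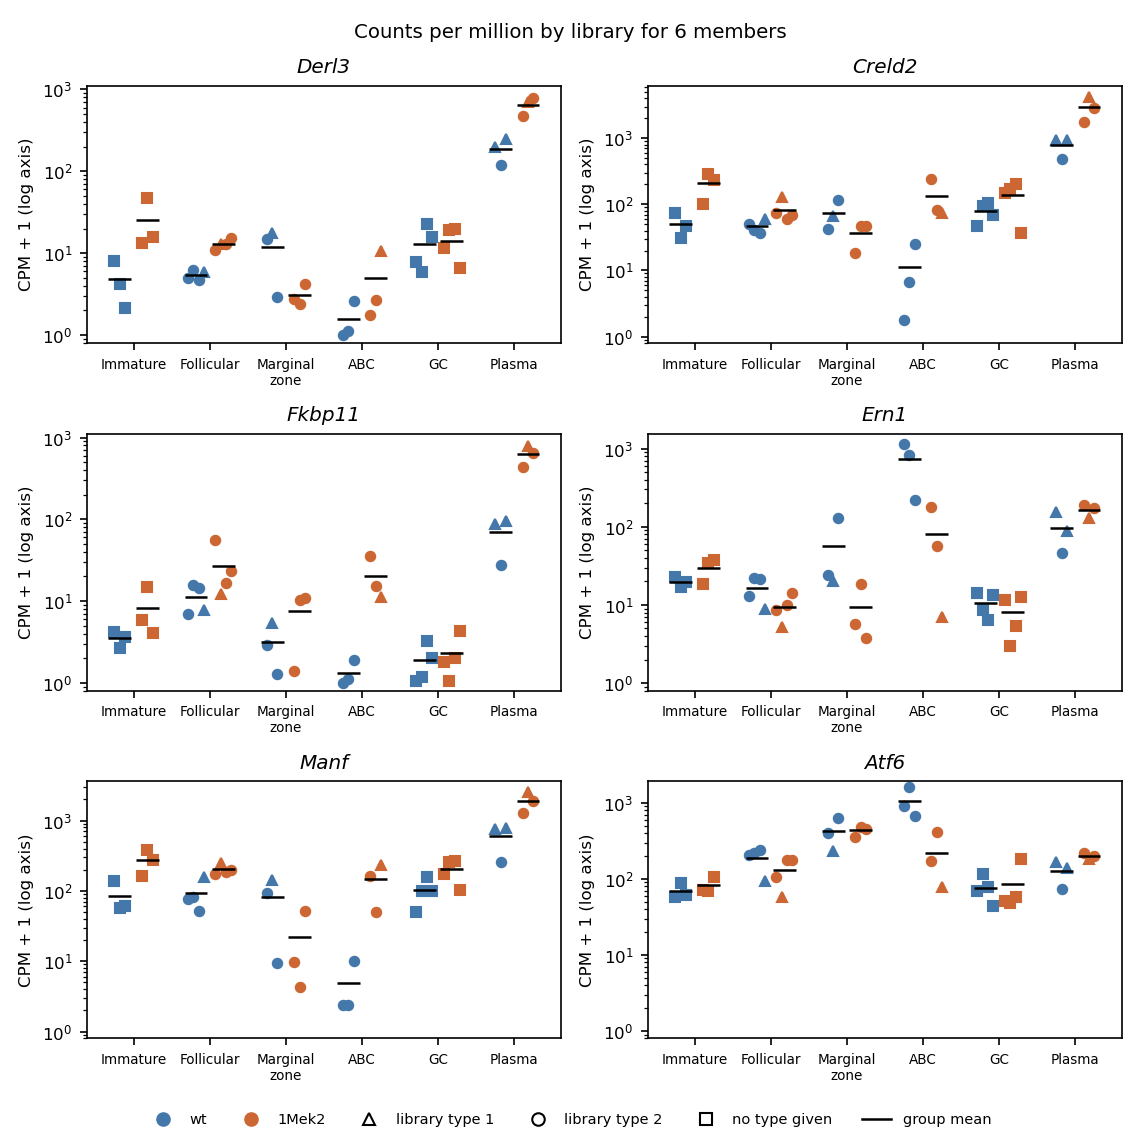
CPM plus 1 on a log axis (y axis) in every library for Derl3, Creld2, Fkbp11, Ern1, Manf and Atf6, by subset and genotype (x axis), with bars at the group means, blue for wt and orange for 1Mek2, and triangles for library type 1, circles for type 2 and squares for no type. In CPM, Derl3 separates Plasma, at 119 to 786 CPM, from every other subset, none of which passes 46.0, while Ern1 is highest in ABC wt, at 219 to 1148.

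The genotype comparisons asked what changes in libraries labelled 1Mek2 within a subset. In Immature cells 7 members were called higher and 0 lower, against 0.810% and 0.123% of 21115 genes, and 43 of 44 had a positive log2 fold change, with a median of 0.97 against -0.17 over all genes. Creld2 was at 100, 289 and 232 CPM in libraries labelled 1Mek2 and 73.4, 30.3 and 46.3 in wt (1.98 ± 0.40, edgeR adjusted p = 0.00203). Sdf2l1, a component of the chaperone complex of BiP, was at 122, 252 and 137 against 73.6, 25.7 and 37.4 CPM (1.83 ± 0.40, edgeR adjusted p = 0.00467). Derl3 was at 12.2, 46.0 and 14.8 against 6.98, 3.25 and 1.15 CPM (2.59 ± 0.64, 0.0211). Manf (163, 383 and 272 against 138, 56.4 and 60.3 CPM), Sel1l (127, 342 and 217 against 91.8, 74.8 and 61.9), Sec61a1 (142, 344 and 149 against 101, 43.5 and 64.0) and Dnajc3 (87.0, 215 and 187 against 75.6, 15.5 and 44.9) were also called. In all 7 the lowest library labelled 1Mek2 lay above the highest wt library, and the highest was replicate 3 in each. Every library of the first group lay above every wt library in 19 members, and in 8.52% of all genes.

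Plasma cell markers moved with these members. Their sum was 1633 to 6259 CPM in the Immature libraries labelled 1Mek2 and 219 to 888 in wt, all 6 had a positive log2 fold change and 4 did not overlap. Jchain, the joining chain of secreted IgM and IgA, was at 1170, 5195 and 3248 CPM against 570, 104 and 115, and Xbp1 at 418, 957 and 654 against 270, 86.7 and 130 (1.99 ± 0.39, edgeR adjusted p = 0.0018). Reads on long neuronal genes summed to 586 to 1304 CPM in wt and 288 to 899 in libraries labelled 1Mek2. The part of the plasma cell markers in the difference was not tested. With the neuronal sum as a covariate 0 members were called, without 1Mek2 replicate 3 also 0, and with the library named Mek1ff kept as 1Mek2 again 0. Exon reads gave 2, Creld2 and Sdf2l1, and DESeq2 gave 1, Derl3. Without wt replicate 1 or 1Mek2 replicate 2 there were 21, without 1Mek2 replicate 4 there were 4, and without wt replicate 2 or 3 there were 3 and 2.

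In Plasma, 43 of 44 members had a positive log2 fold change, with a median of 1.35 against -0.02 over all genes, but none passed adjustment in edgeR, where 0.0605% of 14878 genes did. Unadjusted, 24 members had p under 0.05, as did 15.4% of all genes. Txndc11, a thioredoxin-domain protein of the ER, was at 628, 574 and 1022 CPM in libraries labelled 1Mek2 and 157, 110 and 153 in wt (2.50 ± 0.37, edgeR adjusted p = 0.0577). Ssr2 was at 770, 1100 and 1180 against 250, 182 and 300 CPM (2.18 ± 0.38, edgeR adjusted p = 0.0684), and Fkbp11 at 430, 797 and 647 against 85.6, 26.8 and 94.1 (3.30 ± 0.57, 0.0684). None of the 3 overlapped. Every library labelled 1Mek2 lay above every wt library in 19 members, and in 10.8% of all genes. With a term for library type 32 members were called higher and 0 lower, against 4.24% of all genes called higher, and the median was 1.81. Within type 2 alone, 2 libraries labelled 1Mek2 against 1 wt (replicate 2), 34 were called higher, where 6.64% of all genes were, and within type 1 alone, 1 (replicate 2) against 2, 0 were called with a median of 1.43. In both of these fits the spread of the lone library was not measured but taken from the other arm. DESeq2 and edgeR without the filter on low counts called 15 each, all higher, where 3.69% and 0.979% of all genes were. Immunoglobulin genes took 17.2%, 25.3% and 19.4% of exon reads in Plasma libraries labelled 1Mek2 and 13.5%, 6.94% and 12.3% in wt. T cell markers summed to 2317 to 2841 against 3030 to 6648 CPM. Neutrophil markers had the higher median in libraries labelled 1Mek2, at 2615.6 to 8124.8 against 1528.4 to 4544.0 CPM, with overlap. Plasma cell markers, at 12489.5 to 25988 against 6976.2 to 16250.7 CPM, overlapped too. The part of a different mix of sorted cells in these values was not tested.

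In GC no member was called by edgeR (0.0540% of 16681 genes were), and 10 had an unadjusted p under 0.05, as did 12.1% of all genes, with 40 of 44 positive. In exon reads 32 were positive. Leaving out 1 library gave from 31 positive (without wt replicate 1) to 41 (without wt replicate 3), and 37 without wt replicate 4, of doubtful genotype. Dnajc3 was nearest, at 118, 112, 139 and 121 CPM against 54.1, 54.5, 70.3 and 42.9 (1.03 ± 0.29, adjusted p = 0.367), and its groups did not overlap. Pdia4 (1.16 ± 0.35, 0.396) and Pdia3 (0.93 ± 0.31, 0.409) followed. In Follicular, ABC and MarginalZone edgeR called no member and 0% of the 14128, 12583 and 12907 genes tested, with 10, 14 and 9 members at an unadjusted p under 0.05, beside 11.1%, 20.0% and 8.77% of all genes. DESeq2 called 1 member higher in Follicular, where 0.768% of all genes were higher, 6 higher in ABC, where 5.96% were, and 0 in MarginalZone. In Follicular, Derl3 was at 9.82 to 14.3 CPM in libraries labelled 1Mek2 and 3.76 to 5.30 in wt (1.56 ± 0.37, adjusted p = 0.42), and Sdf2l1 (1.53 ± 0.43) and Ssr2 (1.10 ± 0.35) followed. In ABC, Manf was at 162, 49.6 and 233 CPM against 1.40, 1.41 and 9.08 (5.46 ± 1.497, adjusted p = 0.131), and Mzb1 (4.47 ± 1.29) and Pdia6 (4.21 ± 1.33) were also far from wt. The ABC wt libraries had fewer exon reads per span count than those labelled 1Mek2 (39.9% to 50.02% against 72.7% to 89.7%), so the exon share and the genotype cannot be told apart there. MarginalZone had a median of -0.49, with 14 of 44 positive, but this rested on wt replicate 2, the only type 1 library of either genotype there. Without it the median was -0.06, with 19 of 44 positive. The smallest p there were those of Spcs3 (-2.83 ± 0.93, adjusted p = 0.519), Pdia3 (-2.17 ± 0.72, 0.519) and Pdia6 (-2.44 ± 0.91, 0.523). Without wt replicate 2 these differences were -0.88, -0.68 and -1.29. Spcs3 was at 313.8 CPM in that library and at 11.5 to 50.02 in the other 5.

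**Figure D4:**
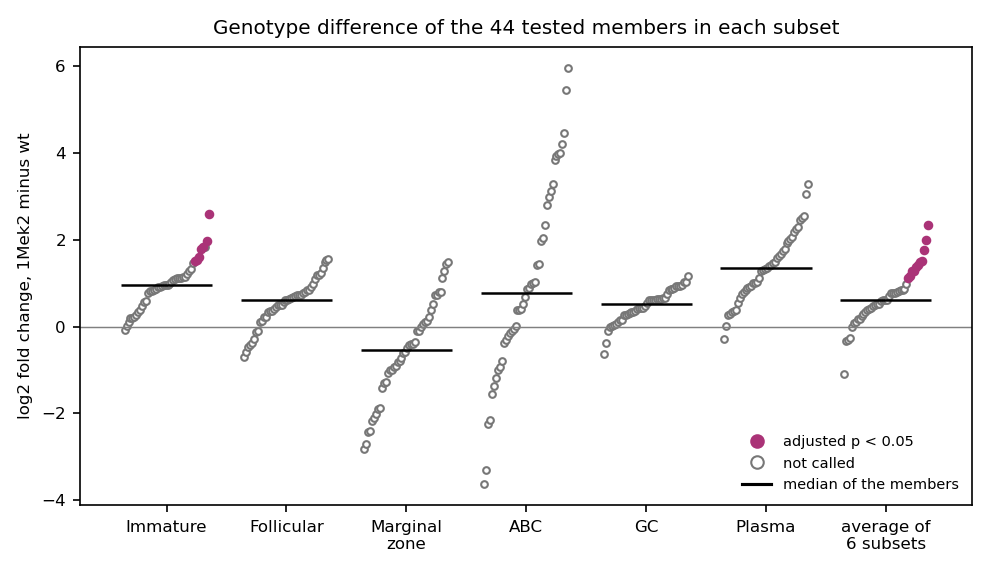
Log2 fold change of libraries labelled 1Mek2 minus wt (y axis) for the 44 tested members, ordered by value within each subset and for the average over subsets (x axis), with filled points where the adjusted p was under 0.05 and bars at the members' median. In Plasma and Immature 43 of 44 points lie above 0, and in MarginalZone 14 of 44.

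Averaged over the 6 subsets, with animal as a random block, 11 members were called higher in libraries labelled 1Mek2 and 0 lower, against 4.63% and 1.36% of 25181 genes (limma voom, adjusted p under 0.05). The median was 0.60, against -0.12 over all genes. Ssr2, a translocon-associated protein subunit, had an average log2 difference of 1.99 ± 0.29 (limma adjusted p = 2.35e-05), Ssr4 one of 1.52 ± 0.26 (0.000157), Sec61a1 one of 1.28 ± 0.23 (0.000288) and Sec61b one of 1.38 ± 0.27 (0.00109). Mzb1 (1.77 ± 0.30, limma adjusted p = 0.00013) and Fkbp11 (2.35 ± 0.47, 0.00133) came with them, and Edem2, Manf, Derl3, Creld2 and Sdf2l1 were called as well. Leaving out each of the 16 animals in turn gave 8 to 15 calls, and the 6 members with values here kept theirs each time. None of the 5 sensors and stress factors was called. Exon reads per span count had a higher median in libraries labelled 1Mek2 than in wt in every subset. The medians were 90.4% against 79.9% in Immature, 91.6% against 76.2% in GC and 77.5% against 41.2% in ABC. In Follicular they were 77.7% against 63.7%, in MarginalZone 64.7% against 60.5% and in Plasma 109% against 100%. ABC has the same weight in the average as each other subset. The part of either in the average was not tested.

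The genotype difference varied among subsets for 8 members (edgeR interaction test with 5 degrees of freedom), against 2.00% of 25181 genes. That fit has no term for animal or library type, although several animals gave libraries of more than 1 subset. With animal as a random block (limma voom), an alternative chosen after the data were seen, 10 members were called, 5 of the 8 among them, and 5.37% of all genes. With a term for library type, likewise chosen afterwards, edgeR called 10, 7 of the 8 among them, and 2.52% of all genes. Manf, Spcs1, Txndc11 and Creld2 were called in all 3 fits. Manf had a log2 difference of 5.46 in ABC, 1.79 in Plasma, 1.61 in Immature, 1.23 in Follicular and 0.86 in GC, and -2.004 in MarginalZone (edgeR adjusted p = 0.00601). Spcs1 ran from 3.93 in ABC to -1.88 in MarginalZone (0.0061). Txndc11 had log2 differences of 2.50 in Plasma and 0.87 in Immature, called in neither, and lay between -0.43 and 0.16 in the other 4 subsets (0.0326). Creld2, Pdia6, Dnajc3, Atf4 and Derl3 were the others. For all of these but Txndc11 the highest or the lowest of the 6 values was in ABC or MarginalZone, where no member was called between genotypes.

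Levels of many members separated the library types within one subset, as did those of many other genes. The types were drawn from the Follicular libraries compared here, so a separation of many genes was fixed in advance. Between the 2 type 1 and 6 type 2 Follicular libraries, both type 1 libraries lay above all of type 2 for 18 of the 44 members tested, against 15.8% of 14128 genes, and below all for 4, against 23.5%. Spcs3, a signal peptidase subunit, was at 265 and 304 CPM in type 1 and 20.1 to 40.7 in type 2, and Pdia3 at 590 and 943 against 73.9 to 217. Atf6 (57.2 and 93.1 against 104 to 238) and Sec61g (45.7 and 55.5 against 73.4 to 266) went the other way. Derl3, at 4.88 and 12.1 CPM in type 1 and 3.76 to 14.3 in type 2, overlapped.

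Of 75 other genes of the pathway in 7 lists, 5 of the 6 transcription factors of secretory cells were called higher in Plasma wt against Follicular wt. Prdm1, which encodes BLIMP1, had a log2 fold change of 5.54 ± 0.75 (edgeR adjusted p = 0.00142). Xbp1 was at 2818, 1297 and 2610 CPM in Plasma wt and 73.1, 41.0, 41.4 and 242 in Follicular wt (4.58 ± 0.78, edgeR adjusted p = 0.00394). Called higher were also 4 of 11 oligosaccharyltransferase genes, led by Ddost (2.09 ± 0.47), 1 of 7 signal recognition genes (Srp68, 1.05 ± 0.32), 5 of 16 COPII and cargo receptor genes, led by Sec24d (3.04 ± 0.49), 4 of 12 folding, oxidation and glycan genes, led by Selenom (4.21 ± 0.76), with 1 lower, 1 of 10 retrotranslocation genes (Ube2j1, 2.63 ± 0.61) and 2 of 10 targets of the integrated stress response, led by Atf3 (5.69 ± 1.51). Over all genes tested 12.2% were called higher and 5.53% lower. The 1 of 7 and 1 of 10 are near that share, and 2 of 10 is not far from it. In the Plasma contrast of libraries labelled 1Mek2 the counts, in the same order of lists, were 5, 6, 4, 7, 5, 4 and 1. There 13.9% of all genes were called higher, and the last count, 1 of 10, is near that share. Between genotypes in Immature cells Xbp1 and Chac1, an integrated stress response target (6.89 ± 1.41, edgeR adjusted p = 0.00218), were among the genes called higher. Chac1 was at 0.72, 4.79 and 3.00 CPM in libraries labelled 1Mek2 and 0.03, 0.02 and 0 in wt, so its fold rests on very few reads. In Plasma no gene of these lists was called between genotypes, with Xbp1 at 1.12 ± 0.50 (edgeR adjusted p = 0.341). On average over subsets Krtcap2 (2.00) of the oligosaccharyltransferase and Prkcsh (1.69) of the glycan trimming genes were called higher by limma, and Xbp1 was not (0.80 ± 0.41, limma adjusted p = 0.277).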

How the data were processed

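The submitters' processing notes name GRCm39 and the tools STAR 2.7.11a, Trim Galore 0.6.5 and featureCounts 2.0.3. The authors deposited raw counts over whole gene spans, introns included, and TPM per exonic length; replicates were not pooled. Exon reads were recovered from TPM and exonic length, and 100% of checked values were whole within 0.02. How overlapping genes share reads is not given in the sources used here.

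CPM are TMM-scaled span counts. Members were fitted with all genes: edgeR 4.0.16 quasi-likelihood test (TMM, filterByExpr, robust) per comparison, limma 3.58.1 voom with animal as random block for the average, and DESeq2 1.42.0 as an alternative, in R 4.3.3, with adjusted p under 0.05 called. Animals were read from library names. Libraries of a group carry different animal numbers; the labels say nothing more about replication, so p-values measure the spread between these libraries. Scripts were tested on simulated counts. PCR copies were not told apart, so depth covers counting error only.

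Members and lists were chosen with earlier results of these data known. Named were, in Plasma wt against Follicular wt, the 2 called members with the largest rise per role and all those lower or not called; elsewhere up to 6 called members with the smallest p and no overlap, or the 3 of smallest p; of the other lists, the largest called gene and Xbp1. Further members called are named for completeness. Same-numbered libraries of the 2 genotypes came from different animals, and their correlation passed 0.1 in all pairs only in Immature, with 2 pairs; the numbers were not treated as pairs.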

Additional observations from a re-analysis of the deposited data

Results flagged for a closer look

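In groups of 4 libraries, a value was singled out where its gap to the next, divided by the range, passed Dixon's 95% critical value; chance alone does this in about 5% of groups. The summed TPM of the members was 9271.3 in GC 1Mek2 replicate 4, below the other 3 at 11917 to 12172. It was 9701.1 in Follicular wt replicate 4, above the other 3 at 5691 to 5745. Among 180 combinations of member and group, 29 were singled out, 16 of them with Follicular wt replicate 4 highest and 11 with Follicular 1Mek2 replicate 2 highest, the 2 Follicular libraries of type 1. Of the members named in the comparisons, Spcs2 was at 538.6 CPM in Follicular wt replicate 4, against 140 to 175 in the other 3, and Atf6 at 183.4 CPM in GC 1Mek2 replicate 4, against 47.4 to 56.7.

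The genotype difference varied among subsets by the interaction test (edgeR adjusted p) for Manf (0.00601), Spcs1 (0.0061), Txndc11 (0.0326), Creld2 (0.0344), Pdia6 (0.0422), Dnajc3 (0.0434), Atf4 (0.0434) and Derl3 (0.0444).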

How the results depend on the processing

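The tally of refits left out members not called in Plasma wt against Follicular wt, those of the interaction test and those named only for completeness. Over the refits of the other named members, 744 kept direction and side of the threshold, 112 fell out of the call, 27 entered it and 0 reversed. Counts of called members moved by over 1.5 times as follows. GC against Follicular wt had 12 calls with DESeq2 and 0 with Follicular wt replicate 4 as the only reference; ABC against Follicular had 4 within type 2, 4 with a type term and 17 with animal as block; MarginalZone against Follicular had 1 with DESeq2 and 3 with a type term; Immature against Follicular had 1 with exon reads, 10 without the filter, 0 with the neuronal term and 0 with that single reference. Between genotypes, Immature had 1 with DESeq2, 2 with exon reads, 0 with the Mek1ff library kept and 0 with the neuronal term; ABC had 6 with DESeq2 and 2 without the filter; Follicular 1 with DESeq2 and 5 with a type term; MarginalZone 3 without the filter; Plasma 15 with DESeq2, 15 without the filter, 34 within type 2 and 32 with a type term; the interaction 5 without the filter. Calls over all genes moved as well. With DESeq2, GC against Follicular had 9449 higher and 2654 lower of 26949 genes, and MarginalZone against Follicular 326 and 216 of 17072. With a type term, MarginalZone against Follicular had 201 higher and 62 lower of 14699 genes, and Follicular between genotypes 120 and 75 of 14128. The cause was not tested. Leaving out 1 library gave ranges of 12 to 34 for Plasma against Follicular wt, 4 to 21 for GC, 2 to 18 for ABC, 0 to 24 for Immature, 15 to 26 for Plasma against GC, 23 to 35 for Plasma against Follicular 1Mek2, 0 to 21 for Immature between genotypes and 0 in the other 5 subsets. Calls over all genes moved as well where Follicular wt replicate 4 or ABC wt replicate 3 was left out, as given above. Restricting to 1 type, and the interaction with animal as block or with a type term (10 calls each), were chosen after seeing the data.

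With the replicate block by number, Immature between genotypes had 27 calls, all higher, where 887 of 21115 genes were called higher and 119 lower. No other genotype count changed by over 1.5 times with that block. Same-numbered libraries correlated at 0.139 to 0.367 in Immature but at -0.643 to -0.151 in Plasma, and 8 of 19 pairs matched best with their own number, so the numbers do not pair the samples. Fkbp11 in GC is limited by depth, with at most 2.27 CPM in a wt library.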
